A study of Mus musculus with 17 samples.

Results

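The inhibitory T cell receptors described here are 7 genes, Pdcd1, Lag3, Havcr2, Tigit, Cd160, Btla and Entpd1, out of the 55450 genes counted in AB12 tumors. They were taken by symbol from Gencode vM21, each matched 1 row of the counts, and all 7 passed the filter on low counts in every comparison. The tumors were grown in the peritoneum of female BALB/c mice, 8 weeks old, from 100000 cells of AB12, a single line of murine mesothelioma. The 17 tumors came from independent mice. Untreated tumors were taken in the early phase at d6 (n = 3), in the intermediate phase at d10 (n = 5) and in the advanced phase at d14 (n = 3). Tumors of mice given 200 µg of anti-CTLA4 (clone 9D9) into the peritoneum were taken at d10 (n = 3) and d14 (n = 3). The labels give 4 injections over 2 weeks, and by the study's own account the treated d14 mice had been injected at d6 and d10. For the treated d10 mice the injection days are not given in the sources used here. All 5 groups share the cell line and mouse strain, no antibody control is named for the untreated mice, and the RNA is that of whole tumor, with tumor cells, stroma and infiltrating cells together.

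Inhibitory receptors are induced on T cells by antigen stimulation and deliver signals that dampen activation. Under persistent antigen, as in a tumor, CD8 T cells can carry several of them at once, a state known as exhaustion, and antibodies against some of these receptors are used as checkpoint blockade. Several members are not restricted to T cells. Havcr2 is also made by myeloid cells, Cd160 by NK cells, Btla at high level by B cells, and Entpd1 by macrophages, endothelium and regulatory T cells.

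Total counts per tumor lay between 46371577 and 96759833. By their counts of 277 pseudogenes and small RNA genes, whose counts are sensitive to read mapping, the libraries were clustered into 3 sets. The number of sets was imposed, and a split into 2 is given below. The d6 tumors lay with untreated d10 replicates 1 to 3, the treated d10 tumors with untreated d10 replicates 4 and 5, and both d14 groups together. Between d10 replicates 4 and 5 and replicates 1 to 3, which carry the same label, 7.89% of tested genes were called (edgeR, adjusted p below 0.05 and a fold change above 2) and no member was. Pdcd1 (log2 fold change 0.63, adjusted p = 0.038) and Tigit (0.70, adjusted p = 0.024) were nonetheless higher in replicates 4 and 5 and Havcr2 was lower (-0.53, adjusted p = 0.027), while Lag3 (0.62) had an adjusted p of 0.051. Split into 2 sets, untreated d10 replicates 4 and 5, the treated d10 tumors and all d14 tumors lay together. The study used 2 instruments and 2 read lengths, and which library ran on which is not given in the sources used here. Between d6 and d14 the day and the library set cannot be told apart, nor, in the split into 3 sets, can they between d10 and d14, whereas both d14 groups share a set in either split. Cd8a and Cd8b1, the markers of CD8 T cells, were present in every tumor, as were the T cell markers, whose summed level was 104 to 111 CPM (counts scaled by TMM library size) at d6, 338 to 404 in untreated d10 tumors and 118 to 189 in untreated d14 tumors.

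Pdcd1 encodes PD-1, the receptor of PD-L1 and PD-L2, and lies on the minus strand of chromosome 1 (94038305 to 94052553, GRCm38). Havcr2 encodes TIM-3, whose ligands include galectin-9, and lies on the plus strand of chromosome 11 (46454935 to 46481255). Both rose with Cd8a from d6 to d10, so their promoters are shown beside that of Cd8a (chromosome 6, 71373427 to 71379173). Each runs from 250 bases before to 50 bases after the RefSeq gene start, is written 5′ to 3′ on the gene's strand from GRCm38.p6, and covers chr1:94052504-94052803 (minus), chr11:46454681-46454980 (plus) and chr6:71373177-71373476 (plus). Capitals mark matches on either strand to the letters GGAAA (the core bound by NFAT), TGTGGT (RUNX), TGANTCA (AP-1) and TGACGTCA (CRE).
Pdcd1: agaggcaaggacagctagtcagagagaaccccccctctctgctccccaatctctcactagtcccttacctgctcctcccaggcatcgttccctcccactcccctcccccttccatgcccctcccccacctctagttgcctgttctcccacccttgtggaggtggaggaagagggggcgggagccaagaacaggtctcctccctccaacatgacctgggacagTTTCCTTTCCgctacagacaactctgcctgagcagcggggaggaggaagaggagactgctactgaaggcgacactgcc
Havcr2: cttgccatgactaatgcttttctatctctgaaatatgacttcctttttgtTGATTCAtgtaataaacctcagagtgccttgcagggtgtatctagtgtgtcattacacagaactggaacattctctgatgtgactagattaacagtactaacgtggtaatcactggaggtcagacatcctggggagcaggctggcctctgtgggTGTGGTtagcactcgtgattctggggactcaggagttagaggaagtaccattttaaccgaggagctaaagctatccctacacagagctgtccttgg
Cd8a: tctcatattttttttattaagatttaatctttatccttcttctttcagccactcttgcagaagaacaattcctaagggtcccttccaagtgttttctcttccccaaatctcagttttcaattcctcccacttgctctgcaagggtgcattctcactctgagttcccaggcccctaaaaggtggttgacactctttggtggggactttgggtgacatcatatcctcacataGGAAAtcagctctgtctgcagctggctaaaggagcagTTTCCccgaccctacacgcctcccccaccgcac
Pdcd1 and Cd8a each held 2 matches to GGAAA and none to the other letters, and the 2 matches of Pdcd1 lie end to end. Havcr2 held 1 match to TGTGGT and 1 to TGANTCA. Of 32851 promoters of that length, 61.3% held GGAAA, 16.8% TGTGGT, 7.81% TGANTCA and 1.79% TGACGTCA, so a match to GGAAA is common. Promoter sequences were found for 6 of the 7 members, all but Lag3.

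Lag3, a CD4 homolog that binds MHC class II, lies on the minus strand of chromosome 6 (124904361 to 124911705). Tigit, which competes with the activating receptor CD226 for CD155, and Btla, a receptor of HVEM, lie on chromosome 16, Tigit on the minus strand (43648867 to 43664146) and Btla on the plus strand (45224315 to 45257670). Cd160, another receptor of HVEM, lies on the minus strand of chromosome 3 (96798763 to 96829351). It shares 68 exonic bases with Pdzk1 on the other strand, and whether counting used strand is not given in the sources used here, so reads there cannot be assigned with certainty. Entpd1 encodes CD39, an ectoenzyme that degrades extracellular ATP on the path to adenosine, and lies on the plus strand of chromosome 19 (40612366 to 40741602). A further 3 annotated genes overlap it on the same strand and share none of its exonic bases.

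Per length, Entpd1 was the most abundant member of early-phase tumors, with 12.5 ± 1.28 FPKM (CPM per kilobase of exon, SD, n = 3). Tigit (7.42 ± 0.511 FPKM) and Lag3 (6.85 ± 0.716 FPKM) followed, and their tumors overlapped. Havcr2, Btla and Pdcd1 lay together between 1.64 and 2.57 FPKM, and Cd160 was lowest at 0.458 ± 0.0645 FPKM. In intermediate-phase tumors Entpd1 was again first at 23.2 ± 3.31 FPKM (n = 5), although its lowest tumors lay within the range of others, and Pdcd1 (18.4 ± 5.27 FPKM), Havcr2 (16.4 ± 3.60 FPKM), Lag3 (15.6 ± 4.51 FPKM) and Tigit (15.3 ± 4.60 FPKM) had overlapping ranges. Btla and Cd160 stayed below 4 FPKM in every tumor. In advanced-phase tumors Havcr2 moved to the top of the order with 20.8 ± 3.64 FPKM (n = 3), next to Entpd1 at 13.9 ± 4.06 FPKM, the highest tumor of which overlapped the lowest for Havcr2. Lag3 was below Pdcd1 and Tigit in mean FPKM there, at 7.50 ± 3.40, although the ranges of the 3 genes overlapped. In treated d14 tumors Havcr2 (29.8 ± 2.13 FPKM) and Entpd1 (28.0 ± 3.52 FPKM) stood above every tumor's value of the other 5 members, of which Pdcd1 was the highest at 18.8 ± 1.17 FPKM. In treated d10 tumors Pdcd1 led with 25.2 ± 0.778 FPKM, above every value of Entpd1 (21.3 ± 2.04 FPKM).

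**Figure D1:**
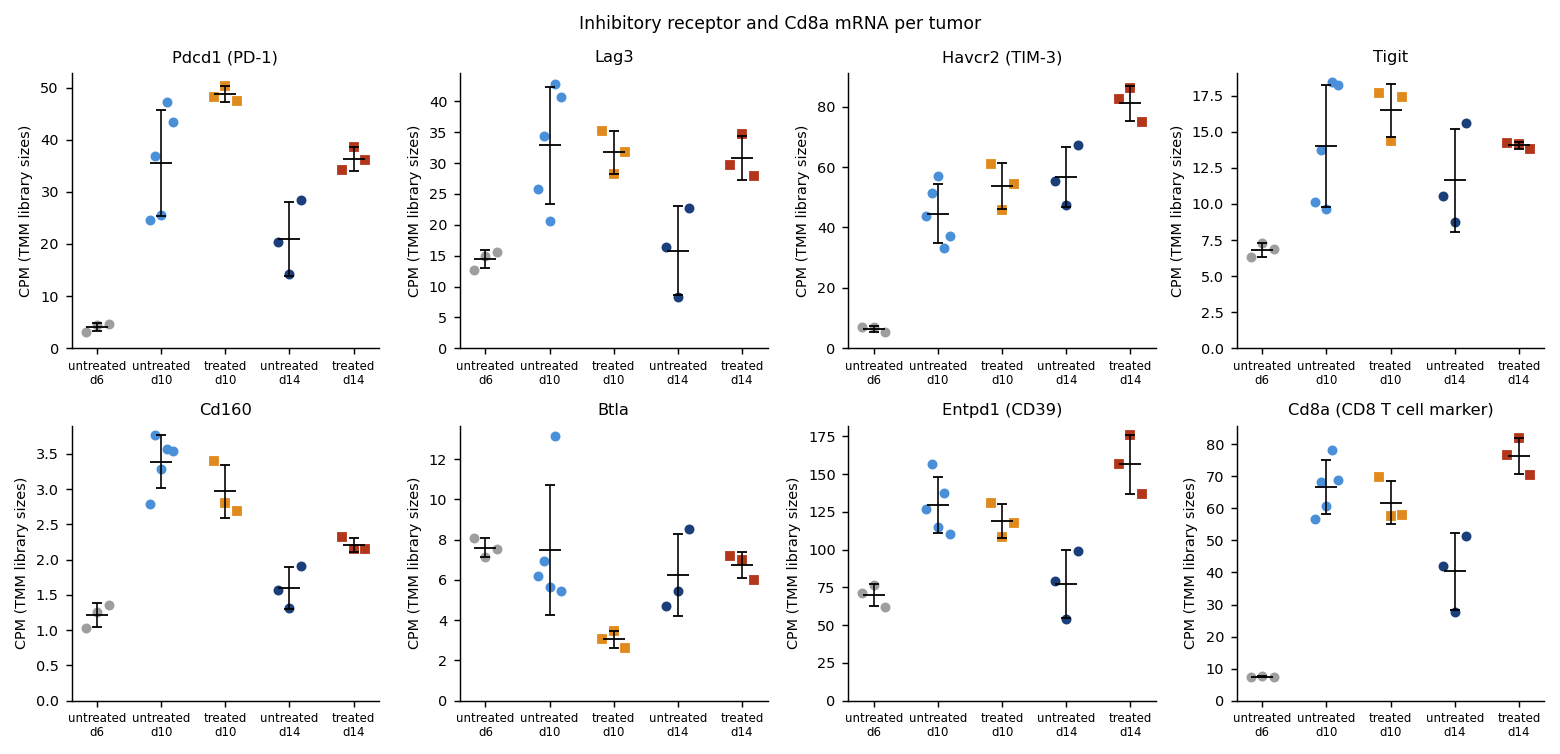
CPM of the 7 receptors and Cd8a in each of the 17 tumors (y axis, from 0) by group (x axis), with points for tumors and lines with bars for group means ± SD. Pdcd1, Havcr2 and Cd8a are near the floor of their panels at d6, Havcr2 alone has no fall of its mean between untreated d10 and d14, and the 3 treated d10 tumors lie below all other tumors for Btla.

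From d6 to d10 in untreated tumors, 5 of the 7 receptors rose and none fell. Pdcd1 was at 3.16, 4.43 and 4.64 CPM in the d6 tumors and at 24.7, 36.8, 25.6, 47.2 and 43.3 CPM in the d10 tumors. Every d10 tumor lay more than 5 times above the highest d6 tumor, a log2 fold change of 3.15 (SE 0.27, edgeR, adjusted p = 0.00018). Havcr2 was at 6.98, 6.89 and 5.41 CPM at d6 and at 43.8, 51.4, 57.0, 33.3 and 37.3 CPM at d10, again without overlap, and rose by a log2 fold change of 2.82 (SE 0.21, adjusted p = 9.1e-05). Cd8a itself went from 7.30, 7.68 and 7.33 CPM to between 56.8 and 78.3 CPM (log2 fold change 3.19, adjusted p = 7.6e-06), nearly the log2 fold change of Pdcd1. In whole tumor, more cells of a type and more RNA per cell cannot be told apart.

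Cd160, Lag3 and Tigit rose less. Cd160 was at 1.02, 1.25 and 1.36 CPM at d6 and between 2.80 and 3.76 CPM at d10 (log2 fold change 1.51, SE 0.20, adjusted p = 0.0013). Lag3 was at 12.7, 15.0 and 15.6 CPM at d6 and at 25.9, 34.4, 20.7, 42.8 and 40.7 CPM at d10 (log2 fold change 1.21, SE 0.24, adjusted p = 0.0078). For both genes the lowest d10 tumor was above the highest d6 tumor. Tigit was at 6.34, 7.28 and 6.85 CPM at d6 and at 10.1, 13.7, 9.67, 18.5 and 18.2 CPM at d10 (log2 fold change 1.07, SE 0.24, adjusted p = 0.015). Entpd1 went from 71.1, 76.2 and 62.1 CPM to between 111 and 157 CPM, a rise past the adjusted p of 0.05 (0.0018) but under a fold of 2 (log2 fold change 0.91, SE 0.13). Btla was the exception, with 7.60 ± 0.482 CPM at d6 (n = 3) and 7.48 ± 3.22 CPM at d10 (n = 5), and adjusted p = 0.9998.

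Among all 16866 genes tested, 4.79% were called higher at d10. The median log2 fold change of the 7 members was 1.21, and that of all genes tested was 0.03. With d10 replicates 1 to 3 alone, which share the library set of the d6 tumors, 3 members were called, Pdcd1 (log2 fold change 2.85), Havcr2 (3.01) and Cd160 (1.46), against 5.73% of all genes called higher. Lag3 (0.92) and Tigit (0.74) kept an adjusted p below 0.05 there and were under a fold of 2. Tigit also lost its call when d6 replicate 1, 2 or 3 or d10 replicate 4 or 5 was left out, with log2 fold changes of 0.95 to 1.11. The NK cell markers, which bear on Cd160, went in different directions. Ncr1 had a mean of 6.78 CPM at d6 and 4.31 CPM at d10, and Klra1 one of 0.112 and 0.0874 CPM. Means were higher at d10 for Klre1 (1.15 and 2.94 CPM), Klrb1c (0.847 and 1.21 CPM) and Klri2 (2.59 and 3.24 CPM). Klre1 was the only NK cell marker called, as higher. The sum of the NK cell markers was at 54.0 to 72.6 CPM at d6 and 66.5 to 115 CPM at d10. It was mostly Gzma (means of 49.7 and 70.9 CPM), which cytotoxic T cells also make, and the part of NK cells in the result was not tested.

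From d10 to d14 in untreated tumors, 2 of the 7 receptors, Lag3 and Cd160, fell. Lag3 was at 16.4, 8.37 and 22.7 CPM in the d14 tumors, and the highest of these was above the lowest d10 tumor (log2 fold change -1.07, SE 0.33, adjusted p = 0.0496). Cd160 was at 1.57, 1.32 and 1.91 CPM, below every d10 tumor (log2 fold change -1.09, SE 0.20, adjusted p = 0.0094). Entpd1, at 79.2, 53.7 and 99.0 CPM, was also below every d10 tumor, with an adjusted p of 0.024 and a log2 fold change of -0.75 (SE 0.19). Pdcd1 was at 20.3, 14.2 and 28.4 CPM, of which the highest overlapped the d10 tumors (log2 fold change -0.77, adjusted p = 0.078). Havcr2 was the only member with a positive estimate, at 55.5, 47.5 and 67.2 CPM (log2 fold change 0.34, SE 0.18, adjusted p = 0.20). Tigit (-0.28, SE 0.27) and Btla (-0.27, SE 0.32) had smaller estimates.

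Among all genes, 3.45% were called lower at d14. Against d10 replicates 1 to 3 only Cd160 was called (-1.03), and against replicates 4 and 5, which share a set with the d14 tumors in the split into 2, Pdcd1 was called beside Lag3 and Cd160 (-1.12, adjusted p = 0.020) and Havcr2 had a log2 fold change of 0.67 (adjusted p = 0.019). Both calls were lost on leaving out individual tumors, as were those of many genes (1277 called in all, 281 without d14 replicate 2). Lag3 was no longer called without d10 replicate 1, 2, 4 or 5 or without d14 replicate 1 (adjusted p 0.064 to 0.12), and without d14 replicate 2, the tumor lowest in Lag3, Cd160 and Cd8a, neither was called (Lag3 adjusted p = 0.16, Cd160 adjusted p = 0.054). Cd8a was at 42.1, 27.6 and 51.3 CPM in these tumors, a log2 fold change of -0.73 (adjusted p = 0.027), the summed NK cell markers were at 9.27 to 19.6 CPM, in large part Gzma and below every d10 tumor, and Ncr1 was at 0.929 to 1.83 CPM against 2.71 to 5.76 CPM at d10. The part of either in the falls of Lag3 and Cd160 was not tested.

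Set against d6, the advanced-phase tumors, whose library set differs from that of the d6 tumors, were higher in 2 members. Havcr2 was higher by a log2 fold change of 3.16 (SE 0.16, adjusted p = 1.1e-05) and Pdcd1 by 2.38 (SE 0.26, adjusted p = 0.00015), and 10.2% of all genes were called higher. Tigit had a log2 fold change of 0.79 (adjusted p = 0.012), under a fold of 2. Lag3 (0.15), Cd160 (0.42), Entpd1 (0.16) and Btla (-0.27) did not pass the threshold, and the d14 values of Lag3 spanned those at d6.

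With anti-CTLA4, the d14 tumors held more Entpd1 than untreated d14 tumors, the 1 member called. Entpd1 was at 157, 176 and 136 CPM in treated tumors and at 79.2, 53.7 and 99.0 CPM in untreated tumors, without overlap (log2 fold change 1.05, SE 0.21, edgeR, adjusted p = 0.011). Lag3 was at 29.8, 34.7 and 27.8 CPM against 16.4, 8.37 and 22.7 CPM (log2 fold change 0.99, SE 0.31, adjusted p = 0.043). In each of these genes every treated tumor was above every untreated tumor. Pdcd1 was at 34.1, 38.6 and 36.0 CPM against 20.3, 14.2 and 28.4 CPM (log2 fold change 0.82, SE 0.22, adjusted p = 0.026). Havcr2 was at 82.6, 86.2 and 74.8 CPM against 55.5, 47.5 and 67.2 CPM (log2 fold change 0.55, SE 0.13, adjusted p = 0.019). The groups did not overlap for these either, and Lag3, Pdcd1 and Havcr2 had an adjusted p below 0.05 with a fold change under 2. Cd160 was also higher in every treated tumor (2.15 to 2.31 against 1.32 to 1.91 CPM, log2 fold change 0.49), at an adjusted p of 0.094. Tigit, at 14.2, 14.2 and 13.8 CPM against 10.6, 8.73 and 15.6 CPM, and Btla, at 7.20, 6.98 and 6.01 CPM against 4.72, 5.46 and 8.55 CPM, overlapped between the groups, with log2 fold changes of 0.30 and 0.14.

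Of all genes, 9.07% were called higher in treated d14 tumors, and the median log2 fold change of the members was 0.55 against -0.0043 for all genes. The Entpd1 call was lost without untreated replicate 2 (log2 fold change 0.83) and without treated replicate 2 (0.99), both with an adjusted p below 0.05. Without untreated replicate 3, the untreated tumor with the most Cd8a, Lag3 (1.37) and Pdcd1 (1.13) were called as well. Cd8a rose in the same comparison by a log2 fold change of 0.95 (adjusted p = 0.014). Markers of other cells that make Entpd1 moved with it, as did those of several other cell types. In treated and untreated d14 tumors the summed macrophage markers were at 1512 to 1864 and 692 to 986 CPM, the summed CD4 and regulatory T cell markers at 59.9 to 68.4 and 19.7 to 26.6 CPM, and the summed endothelial markers at 153 to 188 and 95.3 to 112 CPM, without overlap in any of them. Of these lists, 5 of 8, 5 of 6 and 1 of 6 genes were called higher, and their part in the change of Entpd1 was not tested. Summed T cell (313 to 371 against 118 to 189 CPM) and NK cell markers (26.4 to 33.9 against 9.27 to 19.6 CPM) were also higher without overlap. So were dendritic cell (77.9 to 106 against 45.9 to 75.9 CPM) and neutrophil markers (146 to 194 against 60.7 to 115 CPM). The NK cell sum was in large part Gzma (means of 20.8 against 8.99 CPM), the only gene of that list called. B cell markers overlapped. The sum of the mesothelial tumor markers was lower (1878 to 2096 against 2765 to 2833 CPM), but 2 of its 7 genes, Wt1 and Lrrn4, were called higher and 0 lower.

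At d10 no member was called between treated and untreated tumors, and 0.0174% of all genes were. Means were close for Lag3 (31.7 ± 3.44 CPM, n = 3, against 32.9 ± 9.50 CPM, n = 5), Entpd1 (119 ± 11.4 against 129 ± 18.5 CPM) and Cd160 (2.97 ± 0.382 against 3.39 ± 0.373 CPM). Pdcd1 was at 48.3, 50.4 and 47.5 CPM, above all 5 untreated tumors (log2 fold change 0.46, SE 0.21, adjusted p = 0.38). Btla was at 3.06, 3.48 and 2.61 CPM in treated tumors and at 6.20, 6.94, 5.65, 13.1 and 5.46 CPM in untreated tumors. The treated tumors were thus below all others in the study for Btla, and the log2 fold change of -1.29 (SE 0.30) had an unadjusted p of 0.0017 and an adjusted p of 0.19. Btla was the only member with an unadjusted p under 0.05. DESeq2 called Btla lower (log2 fold change -1.29, adjusted p = 0.0026), as did edgeR with all 5 groups in one fit (-1.30, adjusted p = 0.042) and with untreated replicates 1 to 3 only (-1.03, adjusted p = 0.0020). These fits called 244 of 19332, 77 of 18843 and 1152 of 16963 genes in either direction, against 3 of 17258 in the main fit. Untreated replicates 1 to 3 lie in another library set than the treated d10 tumors. Against untreated replicates 1 to 3, Pdcd1 (0.76, adjusted p = 0.0046) and Tigit (0.57, adjusted p = 0.020) also had an adjusted p below 0.05, under a fold of 2. Against untreated replicates 4 and 5 alone, which share a library set with the treated d10 tumors, 0.561% of all genes were called and no member was (Btla -1.62, adjusted p = 0.082, Pdcd1 0.10, Tigit -0.16).

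The effect of treatment differed between the days for Btla and Entpd1, by the interaction of treatment and day. For Btla the effect was higher at d14 than at d10 by a log2 fold change of 1.42 (SE 0.42, adjusted p = 0.031), and for Entpd1 by 1.16 (SE 0.25, adjusted p = 0.0082), while 9.67% of all genes had an interaction called in this direction. The Btla interaction lost its call on leaving out 7 of the 14 tumors in turn, each of the 3 treated d10 tumors among them, with estimates of 1.26 to 1.53. The Entpd1 interaction lost it without untreated d14 replicate 2 (0.93, adjusted p = 0.019). With untreated d10 replicates 1 to 3 only, or 4 and 5 only, alternatives chosen after seeing the data, both interactions were called (Btla 1.17 and 1.75, Entpd1 1.20 and 1.12). Lag3 (1.03, adjusted p = 0.095) and Cd160 (0.67, adjusted p = 0.071) did not pass. Cd8a had an interaction of 1.05 (adjusted p = 0.011).

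**Figure D2:**
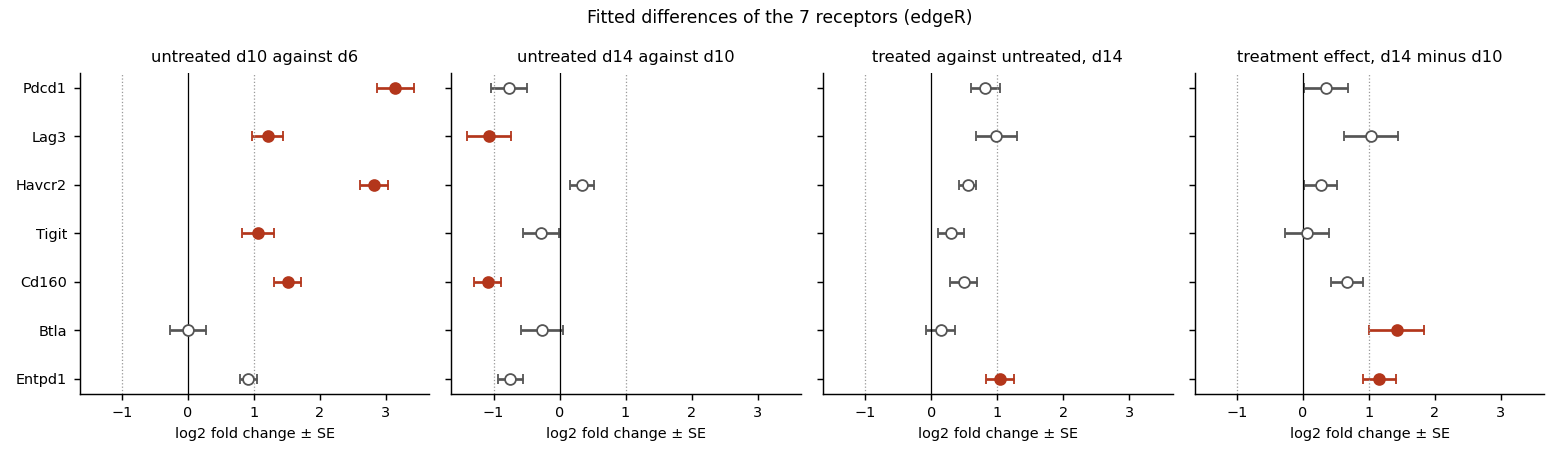
Log2 fold change of each receptor (x axis) with bars of 1 SE from edgeR, for 3 comparisons and for the interaction of treatment and day, where filled red points passed an adjusted p of 0.05 and a fold of 2, open points did not, and dotted lines mark a fold of 2. From d6 to d10 Pdcd1 and Havcr2 stand furthest to the right at 3.15 and 2.82, and Entpd1 is the only member filled at d14 between treated and untreated tumors.

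Between treated d14 and untreated d10 tumors no member was called, beside 7.83% of all genes. Pdcd1 (-0.02), Tigit (-0.05), Lag3 (-0.14), Btla (-0.19) and Entpd1 (0.23) had log2 fold changes near 0, with adjusted p from 0.20 to 0.97, and their direction turned in some alternatives. By unadjusted p, Havcr2 and Cd160 were the members under 0.05. Havcr2 was higher in every treated d14 tumor than in any untreated d10 tumor (log2 fold change 0.83, SE 0.17, adjusted p = 0.0074), and Cd160 was lower than in any of them (-0.66, SE 0.17, adjusted p = 0.018), both under a fold of 2. With untreated d10 replicates 4 and 5 only, Havcr2 was called (1.17, adjusted p = 0.0013). Between treated d14 and treated d10 tumors, 1 member was called, Btla, which was higher at d14 (log2 fold change 1.16, SE 0.16, adjusted p = 0.00082), beside 9.00% of all genes called higher. Havcr2 (0.61, adjusted p = 0.0025) and Entpd1 (0.41, adjusted p = 0.014) were higher and Pdcd1 (-0.41, adjusted p = 0.0021) was lower at d14, each under a fold of 2. These comparisons share tumors with those above.

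Cd8a was used as the marker of CD8 T cells per tumor, and the members differed in how closely they followed it. The 2 CD8 T cell markers did not move in step. Cd8a had means of 66.7 CPM in untreated d10, 40.3 in untreated d14 and 76.4 in treated d14 tumors. Those of Cd8b1 were 44.9, 16.9 and 35.4 CPM, so the relations below are to Cd8a and may differ with Cd8b1. Over the 14 tumors of d10 and d14, treated and untreated, log2 CPM correlated with that of Cd8a at r = 0.95 for Entpd1 (permutation p = 2.0e-05, adjusted p = 0.0020) and at r = 0.93 for Lag3 (permutation p = 7.0e-05, adjusted p = 0.0030). The correlation was r = 0.79 for Pdcd1 (permutation p = 0.0015, adjusted p = 0.017) and r = 0.70 for Cd160 (permutation p = 0.0047, adjusted p = 0.036). Tigit had r = 0.65 (permutation p = 0.0089, adjusted p = 0.055). Btla (r = 0.23, permutation p = 0.42) and Havcr2 (r = 0.20, permutation p = 0.50) had lower values and did not pass. Without untreated d10 replicates 4 and 5, Havcr2 was at r = 0.58 over 12 tumors (permutation p = 0.044, adjusted p = 0.17) and Btla at r = 0.09. Over the 14 tumors 4 of 7 members thus passed, and 10.0% of the 18842 genes tested were positively correlated at that threshold. The permutations mixed tumors of all days, treatments and library sets, so their p-values also reflect differences between these. By rank, Spearman's rho was 0.87 for Entpd1 (permutation p = 0.00012, adjusted p = 0.015), 0.77 for Lag3 (permutation p = 0.0020, adjusted p = 0.041), 0.51 for Pdcd1 (permutation p = 0.065), 0.47 for Tigit (permutation p = 0.091), 0.44 for Cd160 (permutation p = 0.12), 0.37 for Btla (permutation p = 0.19) and 0.29 for Havcr2 (permutation p = 0.31).

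The calls, like those of most genes, rested on the untreated d14 tumors. Untreated d14 replicates 1 and 2 were farthest from the median in Cd8a, and without them no member passed the threshold, as was so for nearly every gene (12 of 18842 were positively correlated at it). Entpd1 was then at r = 0.82 (permutation p = 0.0014, adjusted p = 0.15) and Lag3 at r = 0.67 (permutation p = 0.018), whereas Pdcd1 (r = 0.35), Tigit (r = 0.28) and Cd160 (r = 0.15) were much lower. With the d6 tumors added, which lie apart with little Cd8a, Havcr2 reached r = 0.93 and Pdcd1 r = 0.97, so that for Havcr2 the relation lay mainly between d6 and the later tumors.

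Within groups, where differences between days and treatments are set aside, 4 members rose with Cd8a. Cd8a spread most within the untreated d14 group (27.6 to 51.3 CPM), so the slopes lean on that group. No slope was fitted without it. The slope was 1.64 (SE 0.22, edgeR, adjusted p = 0.0025) for Lag3, meaning that log2 Lag3 rose by 1.64 per unit of log2 Cd8a. It was 1.22 (SE 0.25, adjusted p = 0.017) for Pdcd1, 1.10 (SE 0.25, adjusted p = 0.030) for Tigit and 0.88 (SE 0.18, adjusted p = 0.020) for Entpd1. A positive slope was called for 2.36% of all genes. Btla (0.92, SE 0.37, adjusted p = 0.20), Cd160 (0.64, SE 0.24, adjusted p = 0.17) and Havcr2 (0.27, SE 0.28, adjusted p = 0.62) did not pass. Lag3, Pdcd1, Tigit and Entpd1 passed also with the 2 library sets of the untreated d10 tumors as groups of their own. In that fit Havcr2 had a slope of 0.57 (SE 0.18, unadjusted p = 0.0061, adjusted p = 0.097), about 2 times that above. Tigit no longer passed without the d6 tumors or without TMM scaling, and with Cd3e in place of Cd8a only Lag3 passed.

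**Figure D3:**
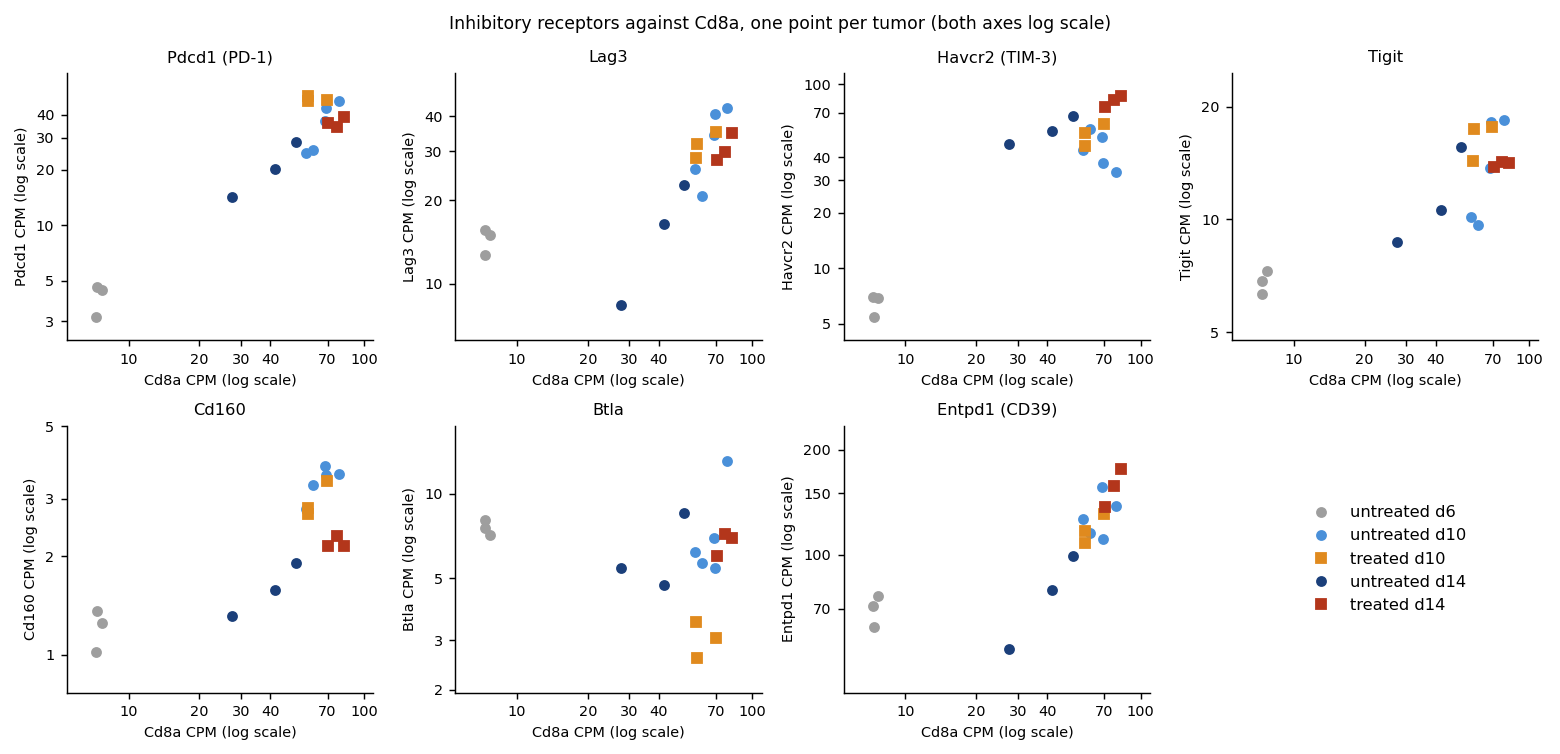
CPM of each receptor (y axis, log scale) against CPM of Cd8a (x axis, log scale), with 1 point per tumor and colors and shapes for the 5 groups. Entpd1 and Lag3 rise with Cd8a along the d10 and d14 tumors (r = 0.95 and 0.93), Havcr2 is more scattered (r = 0.20), and the d6 tumors stand apart at about 7 CPM of Cd8a.

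The ratio to Cd8a shows which receptors kept pace with the marker. From d6 to d10 the mean log2 ratio of Pdcd1 to Cd8a went from -0.87 ± 0.28 (SD, n = 3) to -0.95 ± 0.26 (n = 5), with overlapping tumors (exact permutation p = 0.63). That of Havcr2 went from -0.22 ± 0.19 to -0.60 ± 0.45 and overlapped as well (exact permutation p = 0.25), but with d10 replicates 4 and 5 alone it was lower without overlap (-0.84). For the other 5 members all d10 tumors had a lower ratio than all d6 tumors, by -1.72 for Cd160, -2.0 for Lag3, -2.16 for Tigit, -2.26 for Entpd1 and -3.24 for Btla on the log2 scale (exact permutation p = 0.018 each, the smallest that 3 against 5 tumors allow). Of all genes, 99.4% had a lower ratio without overlap, since Cd8a was among the genes that rose most, and 2 genes had a higher one. In d6 tumors Lag3 and Entpd1 were above Cd8a in CPM (log2 ratios of 0.94 and 3.21), and at d10 Lag3 was below it (-1.06).

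From d10 to d14 Havcr2 was the only member whose ratio did not overlap between the days. It was -0.38, -0.41, -0.09, -1.23 and -0.89 in the d10 tumors and 0.40, 0.78 and 0.39 in the d14 tumors, a difference of 1.12 (exact permutation p = 0.018, adjusted p = 0.043), and 46.8% of all genes had a higher ratio without overlap. The ratio of Pdcd1 was -0.95 on both days and that of Entpd1 0.95 and 0.94. With Cd8b1, which fell more than Cd8a, as the marker, the ratios of Pdcd1, Tigit, Btla and Entpd1 were also higher at d14 without overlap. The direction for Havcr2 held with d10 replicates 1 to 3 (0.82) and with replicates 4 and 5 (1.58), each without overlap.

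In treated d14 tumors the ratios of Havcr2, Tigit, Cd160 and Btla to Cd8a were lower than in untreated d14 tumors without overlap, as they were for 74.7% of all genes. Havcr2 stood at 0.11, 0.07 and 0.08 in treated and 0.40, 0.78 and 0.39 in untreated tumors, a difference of -0.43. The differences were -0.65 for Tigit, -0.51 for Cd160 and -0.82 for Btla (exact permutation p = 0.10 for each, the smallest that 3 against 3 tumors allow). For Pdcd1 (-0.12), Lag3 (0.10) and Entpd1 (0.09) the differences were smaller and the tumors overlapped.

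**Figure D4:**
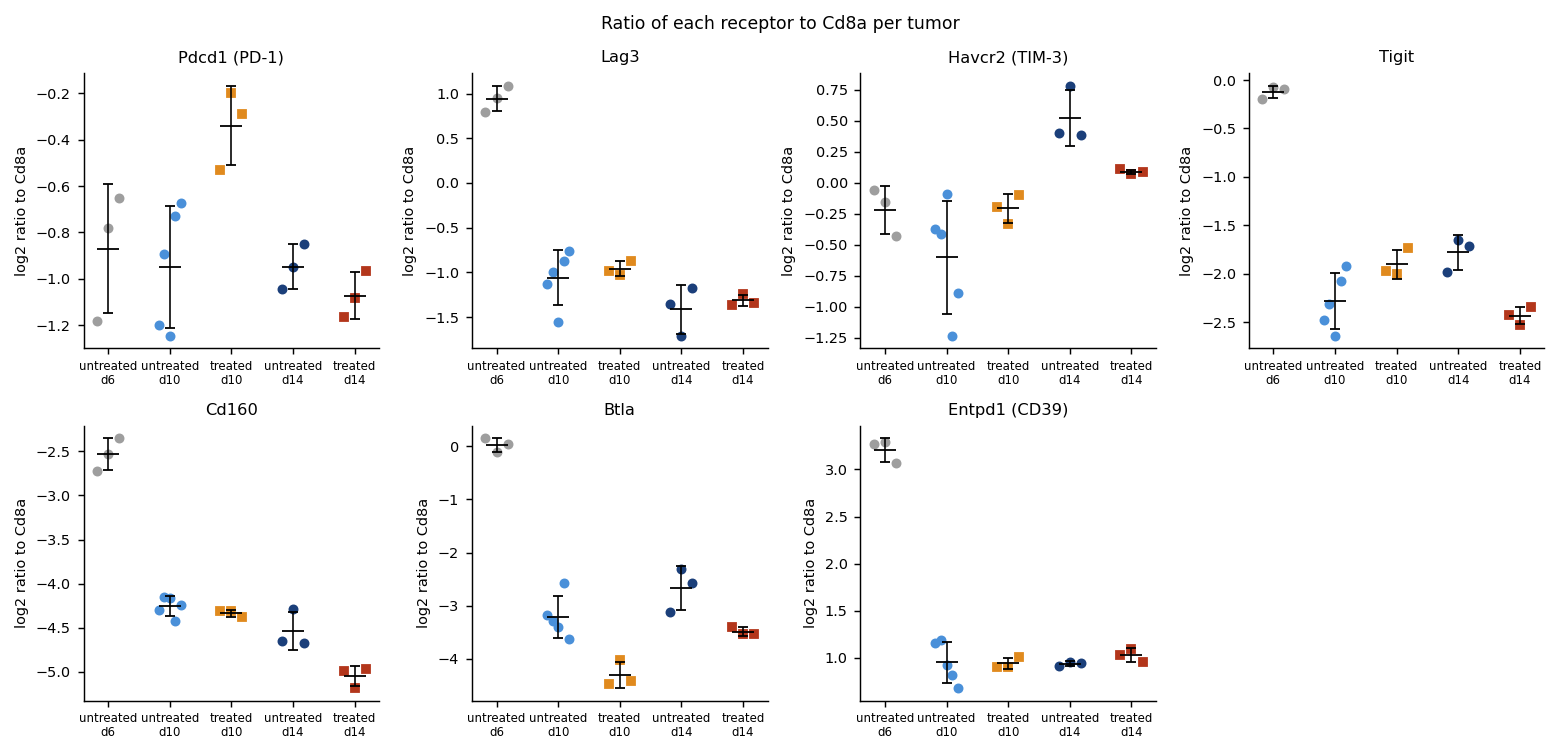
Log2 ratio of each receptor's CPM to that of Cd8a in each tumor (y axis) by group (x axis), with a scale of its own in each panel, points for tumors and lines with bars for means ± SD. The other 5 panels drop from d6 to d10 while Pdcd1 and Havcr2 overlap, and Havcr2 is highest in untreated d14 tumors.

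The genes most like each member across the 17 tumors, among 12111 protein coding genes with a mean of at least 1 CPM, are given by Pearson's r of log2 CPM as a description. The tumors share days, treatments and library sets. For Pdcd1 they were Homer3 (r = 0.97), Cd8a (r = 0.97) and Adssl1 (r = 0.97). For Havcr2 they were Dsc2 (r = 0.98), Gzmf (r = 0.98) and Fcrl6 (r = 0.98). Gzmf, a granzyme of cytotoxic lymphocytes, belongs to a family of near-identical genes, so its counts are uncertain. For Cd160 they were Bspry (r = 0.96), Nrgn (r = 0.95) and Gzmk (r = 0.95), the last another granzyme. For Lag3 they were Parvg (r = 0.97) and S1pr4 (r = 0.96), and for Tigit Fam234a (r = 0.96), H2-DMb2 (r = 0.96) and Ube2h (r = 0.95). Entpd1 was closest to Sirpa (r = 0.99), the myeloid receptor of CD47, to Anpep (r = 0.98) and to Aph1c (r = 0.98). Btla was closest to Fcrla (r = 0.91) and Bank1 (r = 0.91), both genes of B cells, and to Fgf23 (r = 0.90). Among the members, Pdcd1 and Tigit had the highest correlation with each other (r = 0.93), and Btla had a negative r with each of the other 6, from -0.33 with Pdcd1 to -0.01 with Entpd1.

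Btla and Entpd1 stood beside markers of other cells. Of the 7 B cell markers, Pax5 was at 20.5 to 56.0 CPM in every tumor whatever the other 6 did, so the sum of the other 6, a choice made after seeing the data, is given. That sum was 26.1 to 31.8 CPM at d6, 9.80 to 144 CPM in untreated d10 tumors, 2.82 to 6.81 CPM in treated d10 tumors, 2.54 to 36.0 CPM in untreated d14 tumors and 22.0 to 34.5 CPM in treated d14 tumors. The untreated d10 tumor with the highest sum, replicate 4, was also the one with the most Btla (13.1 CPM). The treated d10 tumors, lowest in Btla, had 0.979, 2.40 and 1.30 CPM of Cd79a, a component of the B cell receptor, against 3.08 to 50.0 CPM in untreated d10 tumors. Untreated d14 replicate 2, with the lowest sum (2.54 CPM), had 5.46 CPM of Btla. Btla had r = 0.87 with this sum over 17 tumors, and none of the 7 B cell markers was at 0 in any tumor. The macrophage markers had r = 0.92 with Entpd1 over the 14 tumors of d10 and d14, and at d6 Entpd1 was lower (62.1 to 76.2 CPM) at a macrophage sum of 1394 to 1495 CPM, a level at which the treated d10 tumors, at 1286 to 1507 CPM, had 108 to 131 CPM of Entpd1. The part of either cell type in the levels of Btla and Entpd1 was not tested.

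**Figure D5:**
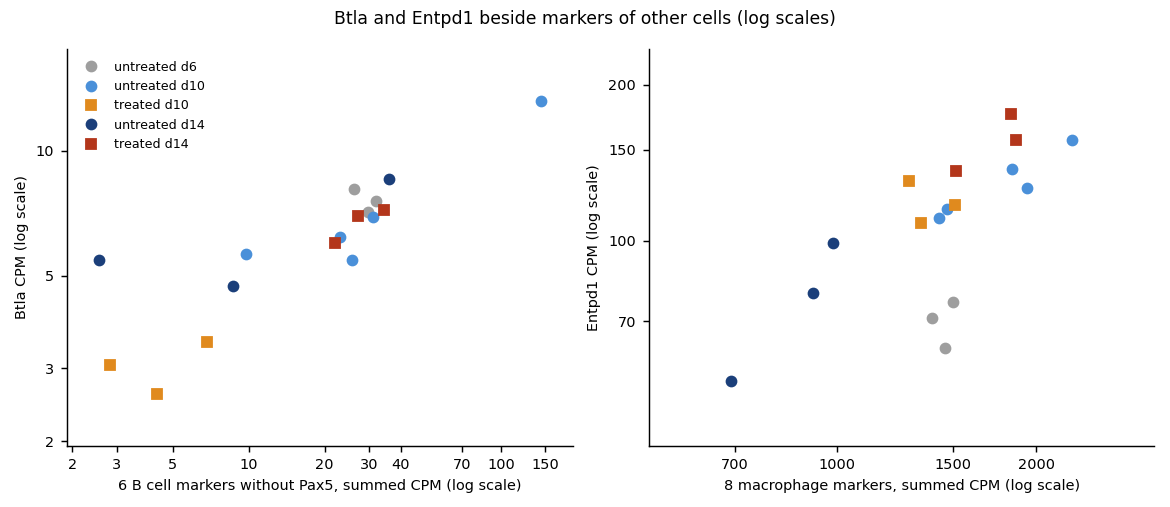
CPM of Btla against the summed CPM of 6 B cell markers (left) and CPM of Entpd1 against the summed CPM of 8 macrophage markers (right), all axes in log scale, with 1 point per tumor. The 3 treated d10 tumors are lowest in Btla with a B cell sum of 2.82 to 6.81 CPM, 1 untreated d14 tumor has a lower sum (2.54 CPM) at 5.46 CPM of Btla, and the d6 tumors lie below the others of equal macrophage sum for Entpd1.

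The counts called in the lists below stand beside shares of all genes tested. Called higher were 4.79% from d6 to d10, 10.2% at d14 against d6, 9.07% in treated d14 tumors and 9.67% by the interaction. Called lower were 449 of 16866 genes from d6 to d10, 3.45% from d10 to d14 and 1512 of 17172 at d14 against d6. Of 12 other inhibitory receptors tested, 3 rose from d6 to d10, Klrc1 (log2 fold change 3.38), which encodes NKG2A, Cd96 (2.54), a receptor of CD155, and Klrg1 (1.43), and none fell. From d10 to d14, 3 fell, Klrg1 (-1.55), Cd5 (-1.05) and Vsir (-1.01), the gene of VISTA. In treated against untreated d14 tumors 5 were higher, Cd5 (1.37), Klrg1 (1.33), Vsir (1.30), Cd300a (1.28) and Pvrig (1.07), a receptor of the TIGIT family's ligands. Their median log2 fold changes were 0.77, -0.76 and 0.98 in these comparisons, against 1.21, -0.75 and 0.55 for the members. At d14 against d6, Klrc1 (3.23) and Cd96 (1.68) were higher. The interaction of treatment and day was called for 6 of the 12, the 3 with the largest estimates being Siglecg (2.96), an inhibitory receptor of B cells, Cd5 (1.52) and Cd300a (1.44). Ctla4, the target of the antibody, is listed with 0 to 2 counts in every library and was not tested, and whether these are its true counts is unknown.

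Of 12 ligands and partners tested, 2 rose and 1 fell from d6 to d10. Cd226 (1.59), which shares CD155 with TIGIT, and Nt5e (1.52), the enzyme that completes the path from ATP to adenosine begun by CD39, were higher, and Lgals9 (-1.37), the galectin that binds TIM-3, was lower. Nt5e was also higher at d14 than at d6 (2.47), where Lgals9 (-1.56) and Nectin2 (-1.06) were lower. That 1 of 12 was higher is near the 10.2% of all genes. Pdcd1lg2, which encodes PD-L2, fell from d10 to d14 (-1.74, adjusted p = 0.0080) and was the only gene of this list called in treated against untreated d14 tumors, where it was higher (1.62, adjusted p = 0.0080). Of 11 signaling genes, 4 rose from d6 to d10, Sh2d2a (1.75), Lck (1.30), Sh2d1a (1.26) and Dgka (1.08), and 3 fell from d10 to d14, Lck (-1.20), Sh2d1a (-1.14) and Ptpn6 (-1.01), the phosphatase SHP-1. At d14 against d6, Sh2d2a (1.11) was higher and Ptpn6 (-1.13) lower, 1 of 11 in each direction and near the shares of all genes. In treated d14 tumors Inpp5d (1.11), Lck (1.10), Dgka (1.09) and Sh2d2a (1.02) were higher. The interaction was called for the ligands and partners Pdcd1lg2 (1.86) and Cd226 (1.04) and for the signaling genes Ptpn6 (1.36), Lck (1.36), Inpp5d (1.17) and Dgka (1.13).

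Of 16 factors of T cell exhaustion and differentiation, 4 rose from d6 to d10, Tox (1.64, adjusted p = 0.0037), a driver of the exhausted state, Tbx21 (1.61), Nr4a2 (1.21) and Id2 (1.11). Tox (1.59) and Nr4a2 (1.27) were also called higher at d14 against d6, as were Havcr2 and Pdcd1, and Batf (-1.14) was lower. For this list these are 2 of 16 higher and 1 lower, near the shares of all genes. Tbx21 (-1.31) and Batf (-1.09) fell from d10 to d14. In treated against untreated d14 tumors 5 were higher, Nr4a3 (1.46), Irf4 (1.38), Tbx21 (1.19), Tcf7 (1.07), the factor of memory-like T cells, and Nr4a1 (1.06), and none was lower. The interaction was called for 6 of the 16, with Tcf7 (1.56), Irf4 (1.54) and Tbx21 (1.5) the largest. At d10 none of these lists held a gene called between treated and untreated tumors. Between treated d14 and treated d10 tumors Siglecg (2.58) and Tox2 (1.11) were higher, and against untreated d10 tumors treated d14 tumors were higher in Nt5e (1.06).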

How the data were processed

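RNA of 17 AB12 tumors was sequenced after KAPA RNA HyperPrep library preparation. Per the study's methods and the submitters' processing notes, the authors aligned paired-end reads to GRCm38 (mm10) with TopHat2 2.0.14, kept unique reads and deposited HTSeq counts per gene of Gencode vM21, without normalization. Keeping unique reads undercounts near-identical genes. Groups and replicate numbers came from the sample labels. Each comparison was fitted over all genes of its groups with edgeR 4.0.16 in R 4.3.3 (filterByExpr, TMM, quasi-likelihood test), and a gene was called at an absolute log2 fold change above 1 and an adjusted p-value (Benjamini-Hochberg over all genes tested) under 0.05. CPM use TMM library sizes, and FPKM divide them by exon length. Correlations and ratios used log2(CPM + 0.1), with 100000 permutations or exact permutations, two-sided. Scripts were tested on simulated data. DESeq2 1.42.0 and other filters, scalings, markers and sample sets were alternatives.

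The members, lists and tests were chosen with earlier results of these data known. Named are the members, Cd8a, the 3 genes most like each member (1 is not reported here), and the called genes of each list, or where over 5 were called the 3 of largest change. No 2 replicates agreed within sampling noise (chi-square per gene 18.5 to 268 over 22 pairs). Replicate numbers did not pair the tumors.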

Additional observations from a re-analysis of the deposited data

Results flagged for a closer look

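Btla in untreated d10 replicate 4, at 13.1 CPM, lay far from the other 4 untreated d10 tumors, the gap being 0.807 of the group's whole range against a critical value of 0.710 for 5 samples. This tumor also had the highest B cell marker sum (144 CPM without Pax5). Of 15 sets of untreated d10 values examined it was the only one flagged, and chance flags about 5% of such sets.

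The effect of anti-CTLA4 on Btla differed between the days by a log2 fold change of 1.42 (edgeR interaction, adjusted p = 0.031), as Btla was lower in all 3 treated d10 tumors than in all 5 untreated ones and overlapped between the groups at d14. For Entpd1 the difference between the days was 1.16 (adjusted p = 0.0082), with all 3 treated d14 tumors above the 3 untreated ones and overlap at d10. The B cell and macrophage marker sums moved with these genes, and their part was not tested.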

How the results depend on the processing

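Of 1260 member values under alternatives, 1104 kept their direction and side of the threshold, 42 fell below it, 35 passed it and 79 turned direction. The cause of these changes was not tested. The 5 members called from d6 to d10 were 3 with the replicate block and 3 with untreated d10 replicates 1 to 3, and 4 to 5 when 1 tumor was left out. The 2 called from d10 to d14 were 1 without TMM, 1 with the block and 1 with d10 replicates 1 to 3 (0 to 2 leaving 1 out). For treated against untreated d14, 1 became 2 without TMM, 2 with at least 10 counts in every library and 2 with protein coding genes (0 to 3 leaving 1 out). For treated against untreated d10, 0 became 1 (Btla) with DESeq2, all 5 groups, the block and replicates 1 to 3. For treated d14 against untreated d10, 0 became 1 with replicates 4 and 5. The 2 interactions were 0 to 3 leaving 1 out. The replicate numbers did not pair the tumors (r of deviations -0.28 to 0.14 over 30 same-numbered pairs), though the block raised all genes called at d10 between treated and untreated from 3 to 1210. Replicates 4 and 5 exist only among untreated d10 tumors, so block terms for them take up those tumors. The block is thus close to the use of replicates 1 to 3 only, which called 1152 genes there. The 4 correlations were 2 by rank and 0 without the 2 farthest tumors, and the 4 slopes were 1 with Cd3e. The 1 ratio without overlap from d10 to d14 became 5 with Cd8b1, 2 with Cd3e, 3 with replicates 1 to 3 and 4 with replicates 4 and 5 (1 to 2 leaving 1 out), and the 4 for treated against untreated d14 were 4 to 6 leaving 1 out.

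Values that turned direction were mostly near 0. From d6 to d10 Btla was -0.0086 with DESeq2, -0.012 with at least 10 counts, -0.019 with all 5 groups, -0.033 with protein coding genes, -0.26 with the block and -0.25 with replicates 1 to 3 (-0.30 to 0.092 leaving 1 out). With the block and with replicates 1 to 3, Tigit was 0.040 and 0.062 from d10 to d14, Lag3 was 0.26 and 0.25 for treated against untreated d10 (-0.18 to 0.055), and the Tigit interaction was -0.25 and -0.27 (-0.13 to 0.31). Tigit was -0.16 for treated against untreated d10 with replicates 4 and 5, and the Havcr2 interaction was -0.054. For treated d14 against untreated d10, Pdcd1 was 0.14 without TMM, 0.010 with genes of at least 1 count, 0.023 with at least 10 counts, 0.029 with all 5 groups, 0.067 with protein coding genes, 0.31 with the block and 0.29 with replicates 1 to 3 (-0.13 to 0.11). There Lag3 was 0.016 without TMM, 0.18 with the block and 0.16 with replicates 1 to 3. Tigit was 0.11 without TMM, 0.037 with protein coding genes, 0.31 with the block and 0.30 with replicates 1 to 3 (-0.15 to 0.074), and Btla was 0.073 with the block and 0.074 with replicates 1 to 3 (-0.29 to 0.11). Lag3 between treated d14 and treated d10 was 0.088 without TMM (-0.13 to 0.045). Without TMM the median of all genes shifted by up to 0.16. Leaving 1 tumor out also turned Btla from d10 to d14 (-0.55 to 0.036), Lag3 (-0.18 to 0.46) and Entpd1 (-0.030 to 0.37) from d6 to d14, and Btla for treated against untreated d14 (-0.022 to 0.46). The r of Havcr2 was -0.18 with Cd8b1, and that of Btla -0.22 over 17 tumors. For ratios from d6 to d10, Pdcd1 was 0.995 with Cd3e and 0.17 with replicates 4 and 5 (-0.23 to 0.033), and Havcr2 was 0.69 with Cd3e. From d10 to d14, Pdcd1 was 0.68 with Cd8b1, 0.25 with Cd3e, 0.012 with a pseudocount of 1 CPM and 0.16 with replicates 1 to 3 (-0.075 to 0.069), Lag3 was 0.33 and Cd160 0.40 with Cd8b1, and Entpd1 was 0.67 with Cd8b1, 0.24 with Cd3e and 0.19 with replicates 4 and 5 (-0.082 to 0.047). For treated against untreated d14, Lag3 was -0.055 with Cd8b1 (-0.049 to 0.22) and Entpd1 -0.065 with Cd8b1. Cd160, with counts of the lowest level among the members, had the least depth.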

Other observations

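Ctla4, the target of the antibody, is listed with 0 to 2 counts in each of the 17 libraries, untreated tumors included. Whether these are its true counts is unknown, so the checkpoint under treatment cannot be followed beside the 7 receptors. Foxp3, the factor of regulatory T cells, had means of 5.79 CPM in d6 tumors, 2.36 in untreated d10 tumors, 0.391 in treated d10 tumors, 1.21 in untreated d14 tumors and 2.89 in treated d14 tumors. No CD4 or regulatory T cell marker, Foxp3 included, was called between treated and untreated d10 tumors, where 3 of 17258 genes were. Foxp3 (0.227 to 0.507 against 1.46 to 3.28 CPM) and Cd4 (4.57 to 5.17 against 5.68 to 10.1 CPM) were nonetheless lower in the treated tumors without overlap. The sums of these markers, in large part Il2ra, overlapped there (41.8 to 60.2 against 39.4 to 52.6 CPM). Il2ra had a higher mean in treated d10 tumors (38.3 against 26.4 CPM), whereas Cd4, Ccr8, Tnfrsf4 and Ikzf4 had lower ones.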
